A study of Mus musculus with 15 samples.

Results

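The 8 alpha-like and beta-like globin genes Hbb-y, Hbb-bh1, Hba-x, Hbb-bh0, Hbb-bs, Hbb-bt, Hba-a1 and Hba-a2 were followed in RNA sequencing libraries of mouse embryonic hearts. They were taken by symbol from a table of 55335 gene identifiers, and each symbol matched 1 identifier. The family was chosen by its FPKM values in these libraries, in which its embryonic members had been seen to differ. Its levels, shares and differences are therefore given as descriptions. Calls of its members in a fit over all genes are listed but are not read as a test.

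Total RNA came from whole hearts at E14.5. There were 15 libraries, 7 from WT embryos, 4 labelled Adamts16+/- and 4 labelled Adamts16+/H355Q. The protein made from Adamts16 is a metalloprotease that cells secrete into their matrix. Both mutant genotypes are written with 1 + allele, and neither the making of the alleles nor the mouse strain is stated in the labels. The labels do not say whether a library held 1 heart or several, or whether libraries came from separate litters. Each SD therefore measures the spread between libraries, and each p sets a group difference against that spread. Whether the libraries are independent of each other is not known. Values are FPKM, the number of sequenced fragments scaled for gene length and library size.

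Globins are the protein chains of haemoglobin, and each haemoglobin molecule pairs alpha-like with beta-like chains. In the mouse, the first red cells come from the yolk sac and use the embryonic chains made from Hba-x (zeta), Hbb-y (epsilon y) and Hbb-bh1 (beta h1). Red cells made later, in the fetal liver, use the adult chains made from Hba-a1, Hba-a2, Hbb-bs and Hbb-bt, and yolk sac cells also come to use adult alpha chains as they mature. At mid-gestation both kinds of cell circulate together, and a whole heart contains the blood in its chambers and vessels.

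Per the GENCODE vM21 annotation of the GRCm38 build, the 5 Hbb members lay on the minus strand of chromosome 7 between 103812524 and 103853216, in the order Hbb-y, Hbb-bh0, Hbb-bh1, Hbb-bs and Hbb-bt along that strand. The 3 Hba members lay on the plus strand of chromosome 11 between 32276400 and 32297298, with Hba-x first. Of the 8, 7 are annotated as protein coding. Hbb-bh0 is annotated as an unprocessed pseudogene of 129 bases that lies 1600 bases downstream of Hbb-y, and its values rest on few fragments.

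The promoters of 1 embryonic beta gene, 1 adult beta gene and 1 adult alpha gene are shown because the embryonic and adult members varied apart from each other in these libraries. Each sequence is the 150 bases before the RefSeq gene start in GRCm38.p6, read 5′ to 3′ along the gene's strand. They lay at chr7:103853208-103853357 on the minus strand for Hbb-y, chr7:103827929-103828078 on the minus strand for Hbb-bs and chr11:32296342-32296491 on the plus strand for Hba-a2. Capitals mark matches on either strand to short motifs. These are CACCC (the box read by Klf1 and related factors), CCAAT (the box of that name) and GATAA (a core read by Gata1). TATAA (the TATA box) and the core TGACC are marked too. TGACC is only part of the longer sites read by nuclear receptors and by the repressor Bcl11a, so a match need not be such a site.
Hbb-y: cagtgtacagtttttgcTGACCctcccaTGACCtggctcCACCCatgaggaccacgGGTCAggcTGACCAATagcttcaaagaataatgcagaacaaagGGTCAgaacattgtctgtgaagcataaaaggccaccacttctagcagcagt
Hbb-bs: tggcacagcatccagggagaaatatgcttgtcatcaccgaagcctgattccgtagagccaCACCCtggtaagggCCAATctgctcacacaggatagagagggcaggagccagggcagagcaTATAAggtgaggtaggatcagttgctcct
Hba-a2: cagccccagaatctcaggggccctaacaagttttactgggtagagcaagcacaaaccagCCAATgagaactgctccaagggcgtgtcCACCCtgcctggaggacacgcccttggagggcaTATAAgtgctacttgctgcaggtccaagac

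The Hbb-y window held 5 matches to TGACC, 1 to CACCC and 1 to CCAAT, and 1 TGACC match overlapped the CCAAT. The Hbb-bs and Hba-a2 windows held 1 CACCC box, 1 CCAAT box and 1 TATA box each and no TGACC core. Hba-x, the embryonic alpha gene, held 1 match to the Gata1 core, 1 CACCC box, 1 TGACC core and 1 TATA box. The window of Hbb-bt, the other adult beta gene, also held 1 TGACC core, with 3 CACCC boxes, 3 CCAAT boxes and 1 TATA box. Among 32851 promoter windows of the same length, 37.4% held a CACCC box, 24.5% a CCAAT box, 13.3% the Gata1 core, 14.2% the TATA box and 23.1% the TGACC core, and 8 windows (0.0244%) held 5 or more TGACC matches. A match describes the letters of the window and no binding was measured.

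The steps between low values implied about 37.6 to 58.4 M fragments per library. This is an estimate only, since whole reads were not recovered. Summed over the family, globins made up 4.12% to 9.0% of all FPKM, and this share overlapped between genotypes. The heart muscle markers lay at a mean of 8.66 to 9.12 on the log2(FPKM + 0.5) scale over 10 genes in the 15 libraries. Adamts16 itself was close to absent, at 0.0324 to 0.235 FPKM in WT, 0.0635 to 0.235 in Adamts16+/- and 0.0677 to 0.125 in Adamts16+/H355Q, so its level does not check the genotype labels. No batch, date or litter is given in the labels. WT libraries 5, 6 and 7 stood apart from WT libraries 1 to 4 in the embryonic globins, and the split was not confined to them. Without WT libraries 5 to 7, 59 genes were called in Adamts16+/- against WT (limma, adjusted p under 0.05). Without WT libraries 1 to 4 the count was 2896. In Adamts16+/H355Q against WT the counts were 3277 and 18, in the same order. What lies behind the split, and its part in the differences between genotypes, was not tested. Embryonic differences and mean shares are given below with and without WT libraries 5 to 7.

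Hbb-y was the most abundant embryonic globin. Its level in WT libraries 1 to 7 was 1149, 1244, 1858, 2073, 239, 134 and 413 FPKM. In Adamts16+/- libraries 1 to 4 it was 5056, 3866, 4516 and 4073 FPKM, and in Adamts16+/H355Q libraries 1 to 4 it was 3089, 679, 5110 and 3547 FPKM. Each Adamts16+/- library lay above each WT library, whereas the Adamts16+/H355Q libraries ran from inside the WT range to the highest value of the 15. The means were 1016 ± 779 FPKM (SD, n = 7) in WT, 4378 ± 527 (SD, n = 4) in Adamts16+/- and 3106 ± 1835 (SD, n = 4) in Adamts16+/H355Q.

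Hbb-bh1, the other embryonic beta gene, was far less abundant. It stood at 11.8, 13.4, 17.9, 20.2, 2.88, 2.76 and 5.88 FPKM in WT, at 56.8, 47.3, 52.4 and 50.7 in Adamts16+/- and at 26.9, 7.54, 45.4 and 35.1 in Adamts16+/H355Q. Here the Adamts16+/- libraries lay above all libraries of both other genotypes. Hbb-y exceeded Hbb-bh1 by 48.5 to 104 times in WT, 80.4 to 89.0 times in Adamts16+/- and 90.1 to 115 times in Adamts16+/H355Q.

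Hba-x, the embryonic alpha gene, stood at 156, 167, 238, 258, 28.7, 20.6 and 38.0 FPKM in WT. It stood at 624, 522, 690 and 372 FPKM in Adamts16+/- and at 184, 60.8, 282 and 184 FPKM in Adamts16+/H355Q. As for Hbb-bh1, the Adamts16+/- libraries lay above all others, and Adamts16+/H355Q overlapped WT. The means were 129 ± 101 FPKM (SD, n = 7) in WT, 552 ± 139 (SD, n = 4) in Adamts16+/- and 178 ± 90.6 (SD, n = 4) in Adamts16+/H355Q.

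Hbb-bh0, the pseudogene, was at a much lower level. As for the embryonic genes, the Adamts16+/- libraries lay above WT, but its mean was highest in Adamts16+/H355Q, at 7.69 FPKM against 6.26 in Adamts16+/-. It was at 0.298 to 2.90 FPKM in WT with a median of 1.32, at 6.33, 4.19, 6.17 and 8.33 FPKM in Adamts16+/-, and at 8.72, 1.59, 12.0 and 8.44 FPKM in Adamts16+/H355Q. With the depth estimated from low values, they correspond to about 2.13 to 84.1 fragments per library. No run of 50 bases in its transcript occurs in any of the other 7 members.

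**Figure D1:**
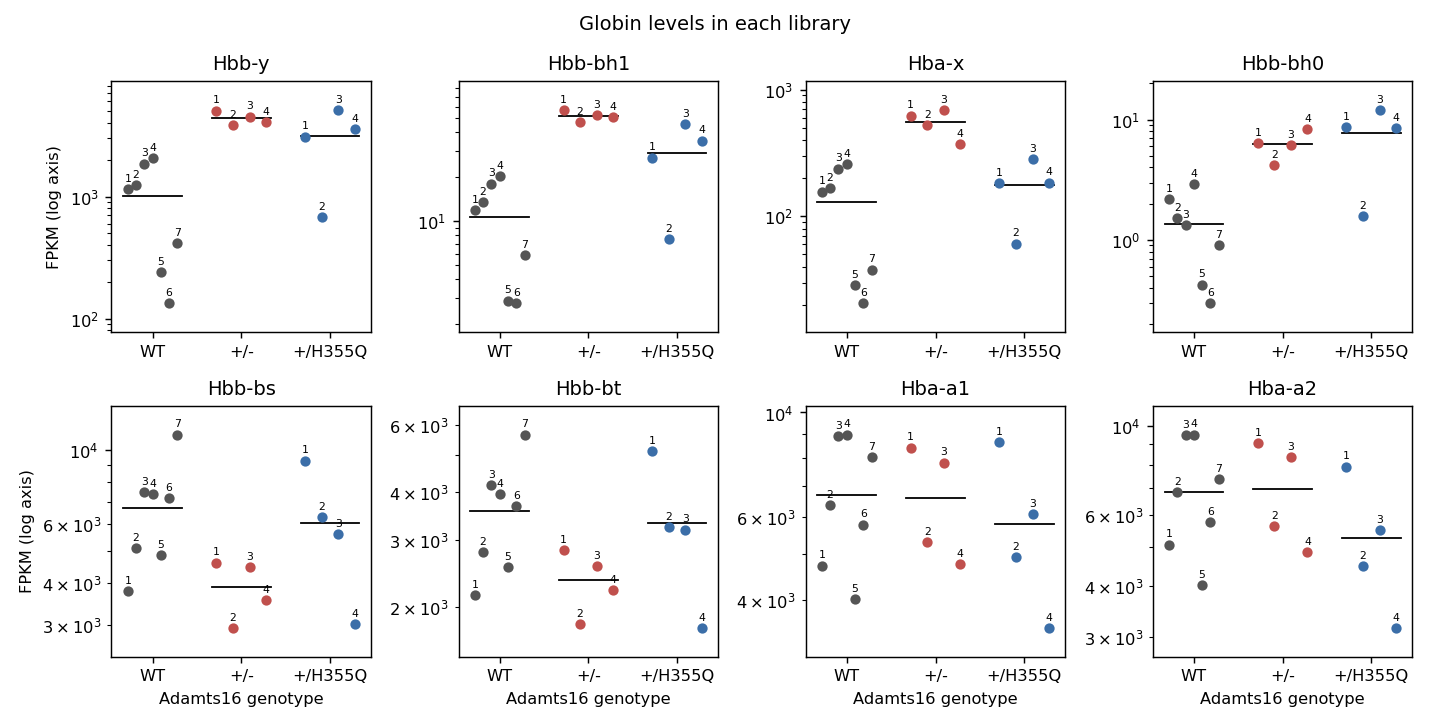
FPKM on a log axis for each of the 8 globin genes by Adamts16 genotype; each point is a library with its number, and the line is the group mean. For Hbb-y, Hbb-bh1, Hba-x and Hbb-bh0 the 4 Adamts16+/- libraries lie above the 7 WT libraries, WT libraries 5 to 7 are the lowest of WT, and the adult genes in the lower row overlap between genotypes.

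The adult beta genes did not follow this order. Hbb-bs, the more abundant of the pair, was at 3794, 5084, 7491, 7379, 4857, 7172 and 11114 FPKM in WT. It was at 4606, 2939, 4457 and 3561 FPKM in Adamts16+/- and at 9292, 6299, 5598 and 3014 FPKM in Adamts16+/H355Q. The highest Adamts16+/- library lay above 1 WT library, and the 3 ranges overlapped. Hbb-bt ran from 2147 to 5669 FPKM in WT, from 1801 to 2813 in Adamts16+/- and from 1762 to 5129 in Adamts16+/H355Q, again with overlap.

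The adult alpha genes also overlapped between genotypes. Hba-a1 was at 4735, 6350, 8894, 8974, 4024, 5785 and 8052 FPKM in WT, at 8427, 5318, 7830 and 4777 in Adamts16+/- and at 8663, 4933, 6099 and 3493 in Adamts16+/H355Q. Hba-a2 ran from 4019 to 9509 FPKM in WT, from 4868 to 9044 in Adamts16+/- and from 3156 to 7918 in Adamts16+/H355Q. Reads can be split uncertainly within each adult pair, since 89.3% of the 50-base runs of Hba-a2 occur in Hba-a1, 72.3% of those of Hba-a1 in Hba-a2, 53.2% of those of Hbb-bs in Hbb-bt and 58.3% of those of Hbb-bt in Hbb-bs.

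In order of mean FPKM over the 15 libraries the members ran Hba-a2 (6470), Hba-a1 (6424), Hbb-bs (5777), Hbb-bt (3177), Hbb-y (2470), Hba-x (255), Hbb-bh1 (26.5) and Hbb-bh0 (4.36). Each neighbouring pair in this order overlapped in range over the 15 libraries. Within each library, however, Hbb-bs was 1.61 to 1.96 times Hbb-bt, and Hba-x was at 5.19 to 15.4 FPKM per 100 FPKM of Hbb-y. In Adamts16+/- alone, Hbb-y, at a mean of 4378 FPKM, stood above Hbb-bs at 3891 ± 785 (SD, n = 4) and Hbb-bt at 2346 ± 438 (SD, n = 4), but its range overlapped that of Hbb-bs.

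The sum of the family was alike in the 3 genotypes, at 24976 ± 7335 FPKM (SD, n = 7) in WT, 24789 ± 5570 (SD, n = 4) in Adamts16+/- and 23767 ± 8272 (SD, n = 4) in Adamts16+/H355Q. In bulk tissue, fewer red cells and less globin RNA per cell cannot be told apart, so shares within the family were set beside the levels.

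Of all beta-like globin FPKM, Hbb-y and Hbb-bh1 together made up 16.3%, 13.8%, 13.9%, 15.6%, 3.17%, 1.24% and 2.44% in WT libraries 1 to 7. They made up 40.8%, 45.2%, 39.4% and 41.6% in Adamts16+/- libraries 1 to 4, and 17.8%, 6.71%, 36.9% and 42.8% in Adamts16+/H355Q libraries 1 to 4. The Adamts16+/- libraries were close to each other and lay above all of WT, while Adamts16+/H355Q spanned from within the WT range to within the Adamts16+/- range. The means were 9.48% ± 6.82 (SD, n = 7), 41.8% ± 2.47 (SD, n = 4) and 26.1% ± 16.8 (SD, n = 4). Without WT libraries 5 to 7 the WT mean was 14.9%, and without WT libraries 1 to 4 it was 2.28%.

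Of all alpha-like globin FPKM, Hba-x made up 1.57%, 1.25%, 1.28%, 1.38%, 0.355%, 0.178% and 0.246% in WT libraries 1 to 7. Its share was 3.45%, 4.55%, 4.09% and 3.71% in Adamts16+/- and 1.10%, 0.641%, 2.37% and 2.70% in Adamts16+/H355Q. Each Adamts16+/- library lay above each library of the other genotypes. The means were 0.893% ± 0.604 (SD, n = 7), 3.95% ± 0.480 (SD, n = 4) and 1.70% ± 0.988 (SD, n = 4), and the WT mean was 1.37% without WT libraries 5 to 7 and 0.260% without WT libraries 1 to 4. In every library the embryonic share was higher on the beta side than on the alpha side, by 6.98 to 11.3 times in WT, 9.64 to 11.8 times in Adamts16+/- and 10.5 to 16.2 times in Adamts16+/H355Q.

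**Figure D2:**
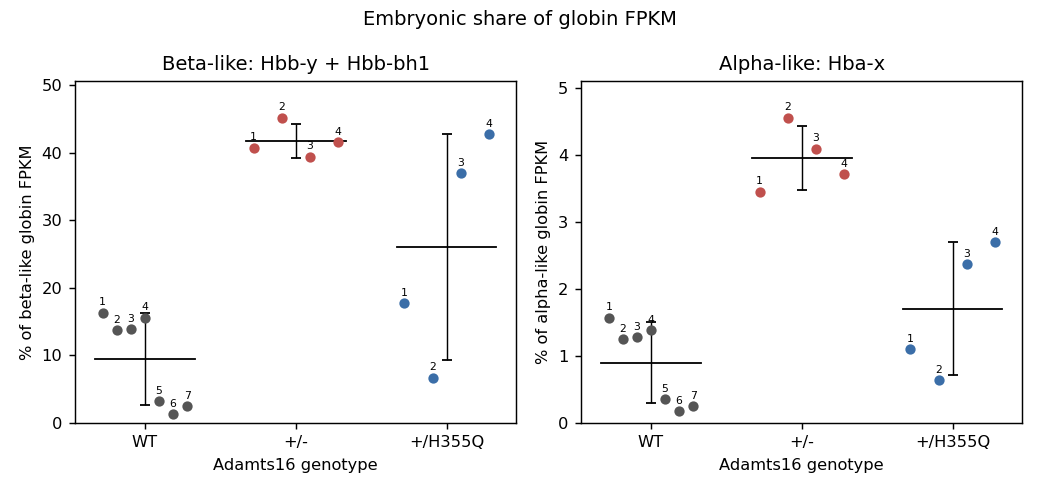
Embryonic genes as a percentage of all beta-like (left) and all alpha-like (right) globin FPKM by Adamts16 genotype; points are libraries with their numbers, lines are group means and bars are 1 SD. The Adamts16+/- libraries sit between 39.4% and 45.2% on the beta side and between 3.45% and 4.55% on the alpha side, above every WT library, and the Adamts16+/H355Q libraries are spread between 6.71% and 42.8% and between 0.641% and 2.70%.

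Markers of fetal liver hepatocytes were highest in the 4 libraries where the embryonic share was lowest. The summed level of 10 hepatocyte markers, all of them detected, was 60.8, 45.6 and 47.0 FPKM in WT libraries 5, 6 and 7 and 40.8 FPKM in Adamts16+/H355Q library 2. These 4 libraries had the lowest embryonic share on both the alpha and the beta side. In the other libraries the sum was 10.4 to 22.5 FPKM in WT, 14.1 to 25.5 in Adamts16+/- and 14.7 to 21.1 in Adamts16+/H355Q. Among those, the highest sum, in Adamts16+/- library 3, stood beside an embryonic beta share of 39.4%. The lowest, in WT library 4, stood beside 15.6%. The part of other tissue or of developmental age in the globin values was not tested.

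On the log2(FPKM + 0.5) scale, Adamts16+/- exceeded WT by 2.66 ± 0.71 (SE of the limma fit) for Hbb-y, by 2.54 ± 0.54 for Hbb-bh1, by 2.63 ± 0.67 for Hba-x and by 1.99 ± 0.46 for Hbb-bh0. The difference was -0.73 ± 0.30 for Hbb-bs, -0.55 ± 0.28 for Hbb-bt, 0.00 ± 0.27 for Hba-a1 and 0.04 ± 0.28 for Hba-a2. The embryonic genes thus stood higher by similar amounts on both sides of the family, and the adult differences were negative on the beta side and near 0 on the alpha side. Without WT libraries 5 to 7 the 4 larger differences were 1.51, 1.71, 1.42 and 1.45, and without WT libraries 1 to 4 they were 4.2, 3.66, 4.23 and 2.70.

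In the fit over the 15172 genes averaging 0.5 FPKM or more, a filter all 8 members passed, 2 of the 8, Hbb-bh1 and Hbb-bh0, were called higher in Adamts16+/- at an adjusted p under 0.05. The background was 1.57% of genes called higher, 1.18% called lower and 2.75% called in either direction. The ranges of 4 of the 8 members lay wholly above WT and those of 0 wholly below, against 3.4% and 2.39% of all genes, or 5.79% in either direction. The number of members called was 0 with any 1 Adamts16+/- library left out, without a filter and without WT libraries 5 to 7. It was 4 with TPM scaling and without WT libraries 1 to 4. The members were chosen with these values known, so nothing is read from these counts.

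Adamts16+/H355Q differed from the same 7 WT libraries by 1.85 ± 0.71 for Hbb-y, 1.45 ± 0.54 for Hbb-bh1, 0.84 ± 0.67 for Hba-x and 2.04 ± 0.46 for Hbb-bh0 (log2 difference ± SE). The adult genes differed by -0.18 ± 0.30 for Hbb-bs, -0.13 ± 0.28 for Hbb-bt, -0.23 ± 0.27 for Hba-a1 and -0.40 ± 0.28 for Hba-a2. None of the 8 was called, against a background of 0.376%, and none had a range outside that of WT, against 2.65% of all genes, 0.863% above and 1.79% below. Without WT libraries 5 to 7 the Hbb-y, Hbb-bh1 and Hbb-bh0 differences were 0.70, 0.62 and 1.5, and that of Hba-x changed sign to -0.36. Without WT libraries 1 to 4 they were 3.39 for Hbb-y, 2.57 for Hbb-bh1, 2.75 for Hbb-bh0 and 2.44 for Hba-x.

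The mutant groups were also set against each other in the same fit, which included WT. Adamts16+/- minus Adamts16+/H355Q was 0.81 ± 0.80 for Hbb-y, 1.09 ± 0.61 for Hbb-bh1, 1.79 ± 0.76 for Hba-x and -0.05 ± 0.52 for Hbb-bh0 (log2 difference ± SE). For the adult genes it lay between -0.55 ± 0.34 for Hbb-bs and 0.44 ± 0.31 for Hba-a2. None of the 8 was called, against a background of 10% of genes, 5.71% higher and 4.33% lower. With only the 2 groups fitted, 1 of the 8 was called, among 3021 genes called of 15149 tested. For 2 of the 8, Hbb-bh1 and Hba-x, the Adamts16+/- range lay wholly above that of Adamts16+/H355Q, against 12.6% of all genes above, 13.1% below and 25.7% in either direction.

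**Figure D3:**
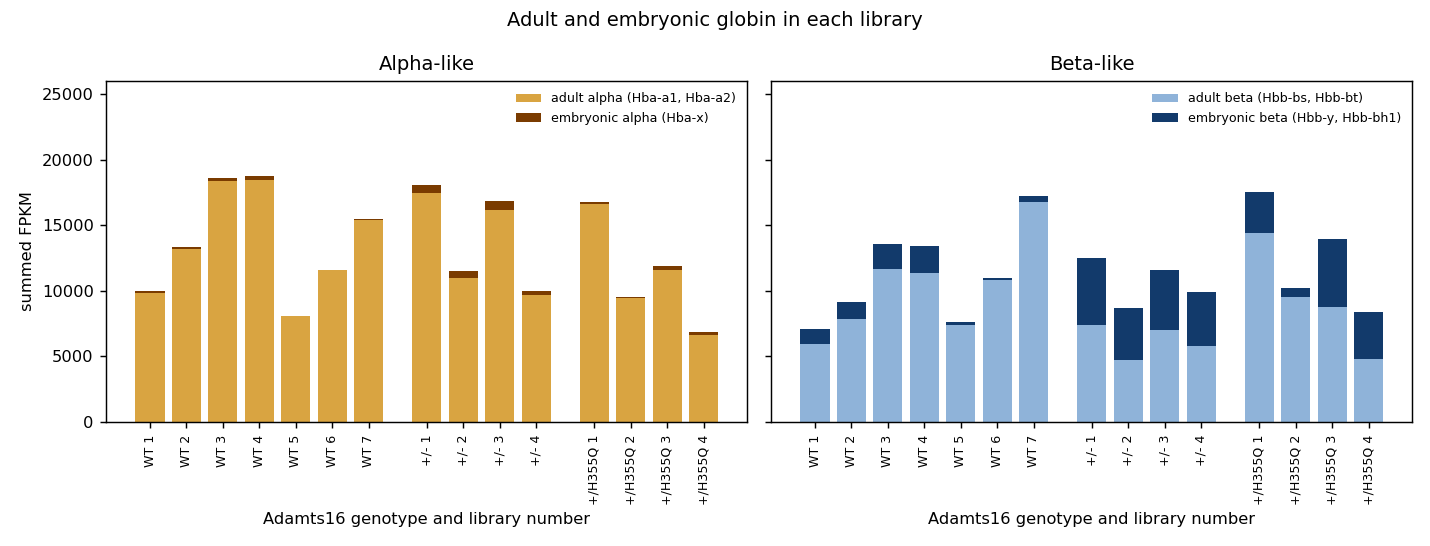
Summed FPKM of the alpha-like genes (left) and beta-like genes (right) in each of the 15 libraries, stacked as adult and embryonic genes. The embryonic part is a thin cap on the alpha side in all libraries and reaches 39.4% to 45.2% of the bar on the beta side in Adamts16+/-.

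Ratios between members within a library separated the genotypes in other ways. Per 100 FPKM of Hbb-y there were 13.6, 13.4, 12.8, 12.5, 12.0, 15.4 and 9.19 FPKM of Hba-x in WT and 12.3, 13.5, 15.3 and 9.13 in Adamts16+/-. In Adamts16+/H355Q there were 5.95, 8.96, 5.52 and 5.19, below every other library. WT and Adamts16+/- therefore held Hba-x and Hbb-y in a similar ratio although their levels differed, and the means were 12.7 ± 1.90 (SD, n = 7), 12.6 ± 2.59 (SD, n = 4) and 6.41 ± 1.73 (SD, n = 4).

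Adult alpha FPKM divided by adult beta FPKM was 1.65, 1.68, 1.58, 1.63, 1.09, 1.07 and 0.920 in WT. It was 2.35, 2.31, 2.31 and 1.67 in Adamts16+/- and 1.15, 0.988, 1.32 and 1.39 in Adamts16+/H355Q. The Adamts16+/- libraries lay above Adamts16+/H355Q and, but for library 4, above WT. With the embryonic genes added on both sides, all alpha-like over all beta-like FPKM was 1.37 to 1.46 in WT libraries 1 to 4. It was 1.06, 1.05 and 0.899 in WT libraries 5, 6 and 7. In Adamts16+/- it ran from 1.01 to 1.46, and in Adamts16+/H355Q from 0.817 to 0.956. On that measure Adamts16+/- overlapped WT, and Adamts16+/H355Q lay below Adamts16+/-. Adamts16+/H355Q also lay below WT libraries 1 to 4 but overlapped WT libraries 5 to 7.

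The 2 adult alpha genes stood close to an even ratio in all libraries. Hba-a1 over Hba-a2 was 0.929 to 0.944 in WT libraries 1 to 4, 1.0, 1.0 and 1.09 in WT libraries 5, 6 and 7, 0.932 to 0.981 in Adamts16+/- and 1.09 to 1.11 in Adamts16+/H355Q. The lowest Adamts16+/H355Q library lay just above the highest WT library. Hbb-bs over Hbb-bt was 1.77 to 1.96 in WT, 1.61 to 1.75 in Adamts16+/- and 1.71 to 1.94 in Adamts16+/H355Q, so that Adamts16+/- lay below WT. Because the genes of each pair share long runs of sequence, these ratios also depend on how shared reads were assigned, which the labels do not state.

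**Figure D4:**
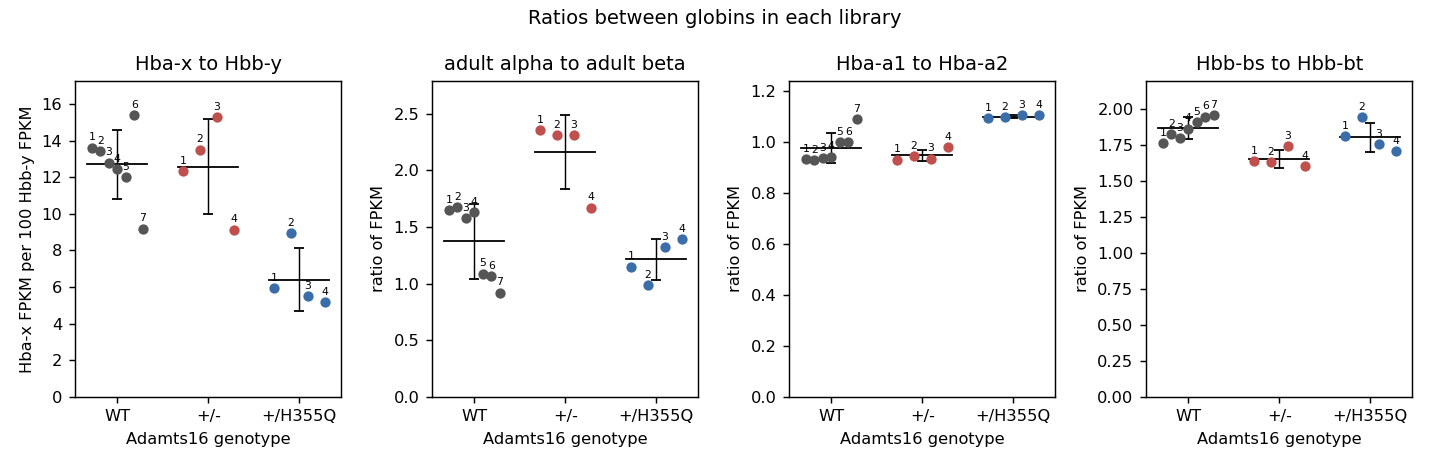
Ratios of FPKM between globin genes by Adamts16 genotype; points are libraries with their numbers, lines are group means and bars are 1 SD. Hba-x per 100 Hbb-y lies between 5.19 and 8.96 in Adamts16+/H355Q, below the other 11 libraries, and adult alpha to adult beta is highest in Adamts16+/- libraries 1 to 3.

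Within the family, the embryonic genes and the pseudogene Hbb-bh0 varied more than the adult genes and in their own pattern. Around its own mean over the 15 libraries, Hbb-y had a root mean square deviation of 1.63 log2 units, Hba-x 1.53, Hbb-bh1 1.38 and Hbb-bh0 1.24, and the adult genes had 0.430 to 0.554. The root mean square difference between centred profiles was 0.349 for Hbb-y and Hbb-bh1, 0.460 for Hbb-bh1 and Hba-x and 0.513 for Hbb-y and Hba-x. From Hbb-bh0 it was larger, at 0.555 to Hbb-bh1, 0.678 to Hbb-y and 0.944 to Hba-x. It was 0.0915 for Hbb-bs and Hbb-bt, 0.102 for Hba-a1 and Hba-a2, and 1.36 to 1.92 between any of these 3 embryonic genes and any adult gene.

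The genes outside the family whose profiles were nearest were looked for among the 11388 genes that averaged 1 FPKM or more. Nearest to the mean profile of Hbb-y, Hbb-bh1 and Hba-x was Hsd3b6, a steroid dehydrogenase gene, at a root mean square difference of 0.355 log2 units, against 1.49 for the profile's own size. It was at 0.933 to 8.47 FPKM in WT, 12.3 to 20.3 in Adamts16+/- and 1.62 to 9.62 in Adamts16+/H355Q. Pdzk1ip1 followed at 0.847, and Hapln1, Stmn4, Gdf6, Snord50a, Col2a1 and Kel lay at 0.992 to 1.13.

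The mean profile of the 4 adult genes had a size of its own of 0.437. Among the genes near it was Alas2, the first enzyme of haem synthesis in red cells, at a root mean square difference of 0.169. Bpgm, the red cell enzyme that makes bisphosphoglycerate, lay at 0.247, Mkrn1 at 0.255 and Blvrb, a biliverdin reductase, at 0.301. Fam220a and Brd3os lay at 0.310 and 0.314. The distances to the embryonic and adult profiles are not on a like footing, since the profiles differ in size.

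Red cell genes other than globins were then tested. Of 84 genes in 5 lists, 83 were found in the table and 76 passed the filter. In Adamts16+/- against WT, 9 rose and 0 fell (limma, Benjamini-Hochberg over 15172 genes), which is 11.8% of those tested against 2.75% of all genes. At an unadjusted p under 0.05 there were 21 of the 76, against 2974 of all 15172 genes (19.6%). The median log2 difference was 0.10, against 0.01 over all genes. The lists were chosen with earlier results of these data known, so the share called is a description. Kel, Ermap, Slc4a1 and Epb42, which are among the 9 called, had been named in those results and are no independent support.

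Among red cell membrane and blood group genes, 4 of 17 rose in Adamts16+/-. Kel, the Kell blood group protein, rose by 1.13 ± 0.15 (log2, SE; adjusted p = 0.00678), from 1.51 to 2.57 FPKM in WT to 3.42 to 5.10 FPKM. Ermap, the Scianna blood group protein, rose by 1.03 ± 0.12 (adjusted p = 0.00318), Epb42, which links the membrane skeleton to band 3, by 0.92 ± 0.14 (adjusted p = 0.0092) and Slc4a1, which is band 3, by 0.87 ± 0.18 (adjusted p = 0.0228). All 4 Adamts16+/- libraries lay above all WT libraries for Kel, Ermap and Epb42, and the ranges of Slc4a1 overlapped. A range wholly above WT was found for 3.4% of all genes. In WT, Ermap was at 0.647 to 1.07 FPKM and Epb42 at 0.732 to 1.47 FPKM. The other 13 genes of the list did not pass, and 10 of the 17 differences were positive. Nearest to a call were Aqp1, lower by -0.52 ± 0.14 (adjusted p = 0.0571), and Add2, higher by 0.45 ± 0.12 (adjusted p = 0.0582).

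None of the 17 genes of haem synthesis and iron supply was called in Adamts16+/- against WT by limma, and 0 had an unadjusted p under 0.05. The smallest p was that of Tfrc, the transferrin receptor, at -0.25 ± 0.12 (adjusted p = 0.28), and Alas2 was at -0.33 ± 0.26 (adjusted p = 0.505). Of 12 cytosolic and late maturation genes 1 rose, Epor, the erythropoietin receptor, by 0.39 ± 0.10 (adjusted p = 0.047). Of 11 erythroid transcription factors 1 rose, Tal1, by 0.88 ± 0.15 (adjusted p = 0.0124), from 1.74 to 3.38 FPKM in WT to 4.43 to 6.64 FPKM. Tal1 is also made by endothelial cells. Their 8 markers summed to 181 to 189 FPKM in WT libraries 1 to 4 and 122 to 156 FPKM in WT libraries 5 to 7. In Adamts16+/- these markers summed to 166 to 170 FPKM, and the part of endothelial cells in the rise was not tested.

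Among 19 factors that act in the switch from embryonic to adult globins, 3 rose in Adamts16+/-. Igf2bp1, an RNA-binding protein of fetal tissues, rose by 0.61 ± 0.11 (adjusted p = 0.0174), from 4.41 to 7.11 FPKM in WT to 8.15 to 9.62 FPKM. Gatad2a, a subunit of the NuRD repressor complex, rose by 0.36 ± 0.08 (adjusted p = 0.0258) and Dnmt1, the maintenance DNA methyltransferase, by 0.29 ± 0.07 (adjusted p = 0.0377). These 3 are expressed in many cell types of the heart, and the red cell share of their RNA was not measured. The repressors Bcl11a and Sox6 were at 0.11 ± 0.05 (adjusted p = 0.266) and 0.19 ± 0.07 (adjusted p = 0.174), and Zbtb7a at 0.51 ± 0.30 (adjusted p = 0.371).

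Single libraries decided several of these calls. Slc4a1 lost its call without Adamts16+/- library 1, 2 or 3, with adjusted p of 0.0945, 0.064 and 0.0756. Igf2bp1 lost it without Adamts16+/- library 1, 2 or 4 (0.0588, 0.062 and 0.0512), and Gatad2a without WT library 5 (0.0541) or Adamts16+/- library 1, 2 or 3 (0.0911, 0.0827 and 0.0756). Epor was called in 5 of 25 other settings and Dnmt1 in 12 of 26. Ermap was called in 26 of 26, Kel and Tal1 in 25. Without WT libraries 5 to 7, 3 red cell genes were called in place of 9, with adjusted p of 0.058 for Epb42, 0.065 for Igf2bp1 and 0.109 for Slc4a1, and without WT libraries 1 to 4, 17 (14 higher, 3 lower).

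In Adamts16+/H355Q against WT, 0 of the 76 red cell genes were called by limma. An unadjusted p under 0.05 was found for 14 of the 76, against 2771 of all 15172 genes (18.3%). The median log2 difference was -0.02, against 0.02 over all genes. The smallest p of each list belonged to Ank1 (ankyrin of the membrane skeleton) at -0.49 ± 0.10 (adjusted p = 0.0561), Abcb10 (a mitochondrial transporter for haem synthesis) at 0.24 ± 0.05 (adjusted p = 0.0648), Bnip3l (which clears mitochondria from maturing red cells) at 0.27 ± 0.08 (adjusted p = 0.1), Tal1 at 0.47 ± 0.15 (adjusted p = 0.139) and Ehmt1 (a histone methyltransferase) at 0.12 ± 0.05 (adjusted p = 0.247). Without WT library 7 the count was 6 (3 higher, 3 lower), and without WT libraries 5 to 7 it was 12 (7 higher, 5 lower).

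In Adamts16+/- against Adamts16+/H355Q, 9 of 76 red cell genes were higher and 0 lower, 11.8% against a background of 10%. An unadjusted p under 0.05 was found for 33 of the 76, against 4382 of all 15172 genes (28.9%). The membrane list held 5 of the 9 called. Slc4a1 was higher by 1.14 ± 0.20 (log2, SE; adjusted p = 0.0102), Kel by 0.99 ± 0.17 (adjusted p = 0.00911), Ermap by 0.88 ± 0.14 (adjusted p = 0.00807), Epb42 by 0.84 ± 0.16 (adjusted p = 0.0117) and Epb41, the skeleton protein 4.1R, by 0.65 ± 0.17 (adjusted p = 0.0281). Zfpm1, the Gata1 partner FOG1, was higher by 0.76 ± 0.18 (adjusted p = 0.0232) and its fellow transcription cofactor Cbfa2t3 by 0.47 ± 0.13 (adjusted p = 0.0337), and of the switching factors Gatad2a by 0.48 ± 0.09 (adjusted p = 0.0102) and Dnmt1 by 0.31 ± 0.08 (adjusted p = 0.0262).

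Kel, Ermap, Epb42, Slc4a1 and Gatad2a were called in 26 of 26 other settings. Epb41 and Zfpm1 lost their call without Adamts16+/- library 1 (adjusted p = 0.0839 and 0.072), 2 (0.0671 and 0.0601) or 3 (0.0687 and 0.0529) or Adamts16+/H355Q library 2 (0.0757 and 0.0743), and Epb41 also without Adamts16+/H355Q library 4 (0.073). Dnmt1 was called in 21 of 26 settings and Cbfa2t3 in 20, both lost without Adamts16+/- library 1 or 2 or Adamts16+/H355Q library 2, Dnmt1 without Adamts16+/- library 3 and Cbfa2t3 without Adamts16+/H355Q library 1 or 4. The summed endothelial markers, 166 to 170 FPKM in Adamts16+/- and 133 to 138 FPKM in Adamts16+/H355Q, moved in the same direction, and their part in these differences was not tested.

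For Slc4a1, Kel, Ermap and Epb42 all 4 Adamts16+/- libraries lay above all 4 Adamts16+/H355Q libraries. The same held for 12.6% of all genes, and 25.7% did not overlap in either direction. None of the haem genes or maturation genes was called. Fech, the last enzyme of haem synthesis, was at 0.27 ± 0.09 (adjusted p = 0.0558), and Prdx2, an abundant red cell peroxidase, at -0.42 ± 0.13 (adjusted p = 0.0538). The median log2 difference of the 76 genes was 0.17, against -0.02 over all genes. Without Adamts16+/- library 1 the count was 5 and without WT library 7 it was 17 (15 higher, 2 lower), and WT enters this comparison through the shared estimate of spread.

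**Figure D5:**
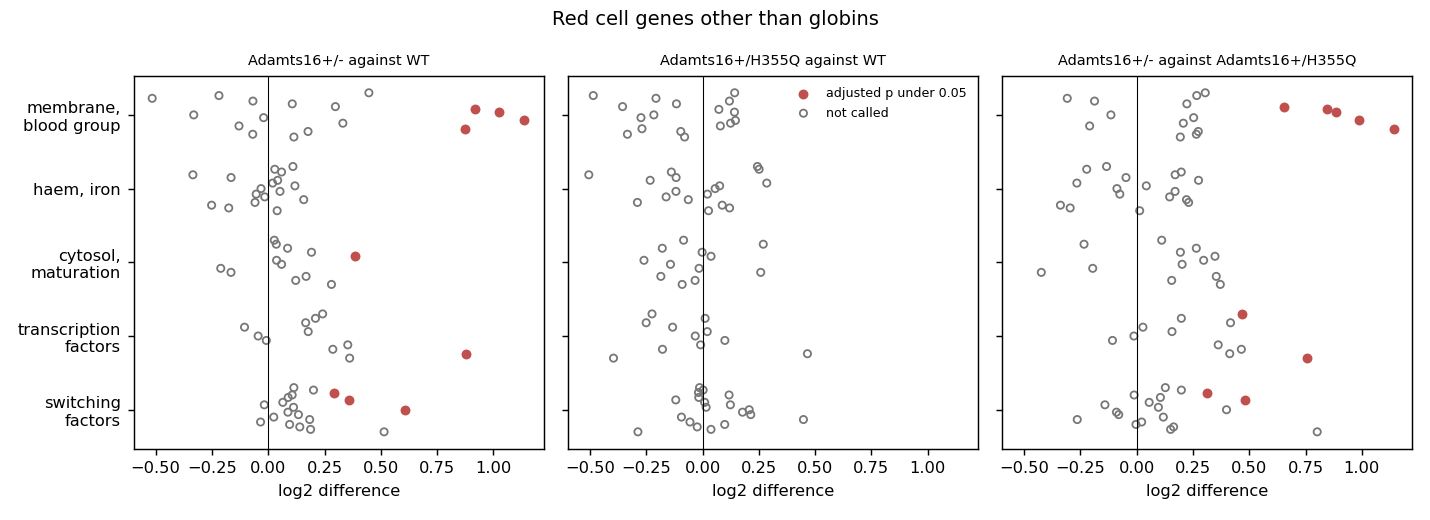
Log2 difference of each of the 76 tested red cell genes in 5 lists for the 3 comparisons; filled points passed an adjusted p under 0.05 in the limma fit over all genes and open points did not. In Adamts16+/- against WT and against Adamts16+/H355Q, 9 genes pass, all to the right of 0, none of them in the haem and iron list, and in Adamts16+/H355Q against WT none passes.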

How the data were processed

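RNA sequencing of 15 embryonic heart libraries was analysed from 1 table of FPKM per gene and library, deposited by the authors. Per the submitters' processing notes, the tools included HISAT2, fastp, DESeq2, HTSeq and R 3.2.0. Which tool gave FPKM, on which build and annotation, and how reads shared by near-identical genes were assigned is not given in the sources used here. Such values are not counts, and whole reads were not recovered: 53.5% to 67.4% of low values of long genes fell within 0.1 of a whole step, so no count model was used.

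Symbols were matched to 55154 of 55335 identifiers through GENCODE vM21. Shares and ratios were computed per library from FPKM: Hba-x over Hba-x, Hba-a1 and Hba-a2, and Hbb-y plus Hbb-bh1 over the 5 Hbb members. limma 3.58.1 in R 4.3.3 was fitted with the variance trend to log2(FPKM + 0.5) of the 15172 genes averaging 0.5 FPKM or more, with genotype as sole term over all 15 libraries, and Benjamini-Hochberg adjustment over all genes. This scale understates differences of low genes. Both comparisons with WT share the 7 WT libraries. The fit was tested on simulated data.

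The globin members and all gene lists were chosen with earlier results of these data known. All 8 members are named. From the red cell lists, the rule named, per comparison and direction, the 6 called genes of largest fold (fewer where fewer were called) and the gene with the smallest p in each list, and the 8 genes nearest each globin profile, leaving out numbered gene models, Rik and clone names. Dnmt1, Cbfa2t3, Alas2, Bcl11a, Sox6 and Zbtb7a were named with their values seen. Ahsp was not found in the table, and some genes that the rule picks are not reported here. Promoter windows come from RefSeq (GRCm38.p6), which gave 6 of the 8 members. Alternatives covered the pseudocount, the filter, scaling, the groups fitted, the replicate number as a block, the globins and genes that enter a share, and leaving out each library. Leaving out WT libraries 5 to 7 or 1 to 4 was added after the data were examined.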

Additional observations from a re-analysis of the deposited data

Results flagged for a closer look

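A library far from the others of its group was looked for in 75 groups of values, and 3 were found; chance flags about 1 in 20 such groups. In Adamts16+/- library 4 the ratio of adult alpha to adult beta FPKM was 1.67, against 2.31 to 2.35 in the other 3 libraries. In Adamts16+/H355Q library 1 there were 2.82 FPKM of Hbb-bh0 per 1000 FPKM of Hbb-y, against 2.34 to 2.38 in the other 3. In Adamts16+/H355Q library 2 the embryonic share on the beta side was 10.5 times that on the alpha side, against 15.6 to 16.2 times in the other 3.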

How the results depend on the processing

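The globin differences moved with which WT libraries entered, and the values of Hbb-bh0 rested on few fragments. Over 26 other settings Hbb-y, Hbb-bh1, Hba-x and the pseudogene Hbb-bh0 kept their sign in Adamts16+/- against WT. Hba-x changed sign in 2 settings in Adamts16+/H355Q against WT.

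Genes called in Adamts16+/- against WT were 417 and became 157 without a filter, 754 (591 higher, 163 lower) with TPM, 715 (561 higher, 154 lower) when scaled to the sum without globins, 272 with the 2 groups alone, 59 without WT libraries 5 to 7 and 2896 without WT libraries 1 to 4, and the main split of 238 higher and 179 lower became 170 and 209 with median of ratios scaling. With 57 in Adamts16+/H355Q against WT they became 24, 24 (2 groups), 3277 and 18. Between the mutants, 1524 became 580, 3021 (1427 higher, 1594 lower), 3500 and 2609. Leaving out 1 library gave 42 to 463, 21 to 1416 and 286 to 2483. Red cell genes called (9, 0 and 9) became 3 (0 lower), 12 (5 lower) and 21 (4 lower) without WT libraries 5 to 7. They became 17 (3 lower, Adamts16+/- against WT) and 14 (2 lower, between the mutants) without WT libraries 1 to 4, 1 (lower, Adamts16+/H355Q against WT) and 17 (4 lower, between the mutants) with the 2 groups alone, and 4 to 10, 0 to 6 and 5 to 17 with 1 library left out. With median of ratios scaling, 6 were higher and 1 lower in Adamts16+/- against WT.

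Replicate numbers did not pair the libraries: same-numbered libraries correlated between -0.234 and 0.239, and 1 of 4 pairs exceeded 0.1 in each comparison. With the replicate block, 8, 2762 and 2931 genes and 1 (0 lower), 10 (4 lower) and 15 (4 lower) red cell genes were called. No other group has the numbers 5 to 7, so the block takes those WT libraries out of the comparison with WT.

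The mean alpha-like embryonic share was 1.71%, 7.42% and 3.18% in WT, Adamts16+/- and Adamts16+/H355Q with only the more abundant adult alpha gene counted. By fragments, the Adamts16+/- shares were 4.97% (alpha) and 37.9% (beta). Without WT libraries 1 to 4, the WT shares were 0.260% and 2.28%. With 1 library left out, the alpha shares were 0.780% to 1.01%, 3.75% to 4.12% and 1.37% to 2.06%, and the beta shares 8.34% to 10.9%, 40.6% to 42.5% and 20.5% to 32.5%. For changes with no cause named, the cause was not tested.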

Other observations

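Other globin genes of the same clusters were near or at the lower end of detection. Hbq1a and Hbq1b, the theta globin genes of the alpha cluster, lay at 0.321 to 1.08 FPKM and at 0.464 to 2.34 FPKM over the 15 libraries. Hbb-bh2 lay at 0 to 0.464 FPKM, the annotated pseudogenes Hbb-bh3 and Hba-ps4 at 0 to 0.0447 and 0 to 0.205 FPKM, and Hba-ps3 was listed at 0 in all libraries.

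Markers of other blood and immune cells were set beside the globins as values. Over 8 megakaryocyte and platelet genes the summed level was 6.07 to 14.3 FPKM in WT, 7.52 to 12.0 in Adamts16+/- and 7.64 to 9.85 in Adamts16+/H355Q. Over 8 macrophage genes it was 33.8 to 50.3, 30.5 to 42.6 and 31.0 to 40.2 FPKM, and over 8 genes of haematopoietic progenitors 26.5 to 28.6, 22.6 to 28.5 and 24.9 to 28.4 FPKM. The 3 genotypes overlapped for all 3 lists. Thymus genes, 7 in number, summed to 17.6 FPKM in WT library 7, 14.1 and 8.22 FPKM in Adamts16+/H355Q libraries 2 and 4, and 3.42 and 5.10 FPKM in Adamts16+/- libraries 1 and 2, against 0.534 to 0.99 FPKM in the other libraries.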
